A study of Mus musculus with 2 samples.

Results

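The genes described here are 32 genes of blood vessel and lymphatic endothelium and of the ligands that act on it, from the junction protein Cdh5 to the lymphatic regulator Prox1. They were listed by name, and each was read by the probe set that the platform annotation ties to that gene symbol alone. All 32 were found among 19938 genes on the array. Lungs of mouse embryos at E13.5, a stage of airway branching, were compared between wild type, called control in another label, and a group labelled Etv4;5 knockout, DKO or CKO. Etv4 and Etv5 are related ETS transcription factors of the distal lung epithelium. RNA of 3 samples was pooled within each group and each pool was hybridised to 1 array, which leaves a comparison of 2 arrays without replicates. The sources used here name no Cre line, strain, sex or deleted exons, and the pooling hides the spread between embryos.

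The lung vasculature forms beside the branching airways from endothelial cells, which line the vessels. VEGF-A from the epithelium and mesenchyme acts on the receptor Kdr, with Flt1 as a decoy, whereas VEGF-C and VEGF-D act mainly on Flt4 and drive the sprouting of lymphatic vessels. Angiopoietins act on the receptor Tek to stabilise vessels. Endothelial identity depends on ETS factors such as Erg and Fli1, which belong to the same DNA-binding family as Etv4 and Etv5, and on Sox7, Sox17 and Sox18. Prox1 sets lymphatic identity.

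Promoter sequences are shown for 5 genes on which the comparison turns: Vegfc, which had the largest difference, its receptor Flt4, the receptors Kdr and Tie1, whose values were equal on both arrays, and Prox1, the most positive difference. Each is the 250 bases before the most upstream start listed by RefSeq (build GRCm38.p6), read 5′ to 3′ along the gene. Capitals mark the ETS core GGAA, which reads TTCC where it lies on the opposite strand.
Vegfc: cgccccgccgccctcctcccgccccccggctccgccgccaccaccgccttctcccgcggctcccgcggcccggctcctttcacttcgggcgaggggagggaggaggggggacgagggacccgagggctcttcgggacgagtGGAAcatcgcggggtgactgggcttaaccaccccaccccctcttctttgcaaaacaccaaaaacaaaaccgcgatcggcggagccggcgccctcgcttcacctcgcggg
Flt4: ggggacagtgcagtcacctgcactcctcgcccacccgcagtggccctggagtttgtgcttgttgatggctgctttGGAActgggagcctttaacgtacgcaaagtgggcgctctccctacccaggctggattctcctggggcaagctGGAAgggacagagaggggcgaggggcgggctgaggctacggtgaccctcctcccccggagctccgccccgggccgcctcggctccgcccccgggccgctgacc
Kdr: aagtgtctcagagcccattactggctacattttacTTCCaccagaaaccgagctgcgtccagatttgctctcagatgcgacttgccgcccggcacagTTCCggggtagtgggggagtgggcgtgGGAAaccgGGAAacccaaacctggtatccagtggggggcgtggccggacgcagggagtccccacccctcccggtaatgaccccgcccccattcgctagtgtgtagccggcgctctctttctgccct
Tie1: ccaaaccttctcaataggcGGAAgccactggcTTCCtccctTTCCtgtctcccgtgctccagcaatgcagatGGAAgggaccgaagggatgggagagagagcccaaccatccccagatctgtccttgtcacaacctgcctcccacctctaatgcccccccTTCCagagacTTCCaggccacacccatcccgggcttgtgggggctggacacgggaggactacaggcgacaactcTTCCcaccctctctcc
Prox1: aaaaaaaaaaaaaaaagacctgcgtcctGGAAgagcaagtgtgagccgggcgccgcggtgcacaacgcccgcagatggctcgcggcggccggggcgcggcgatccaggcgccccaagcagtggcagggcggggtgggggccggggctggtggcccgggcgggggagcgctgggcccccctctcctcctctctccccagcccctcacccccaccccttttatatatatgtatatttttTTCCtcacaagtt

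These stretches lie at chr8:54077282-54077531 (plus strand), chr11:49609429-49609678 (plus strand), chr5:75978456-75978705 (minus strand), chr4:118489850-118490099 (minus strand) and chr1:190170828-190171077 (minus strand). The core was found 1 time before Vegfc, 2 times before Flt4 and Prox1, 4 times before Kdr and 7 times before Tie1. The longer form CCGGAA, which contains the core, was found once among the 5, before Kdr, on the opposite strand. The core is short and common. Promoters were matched for 18 of the 32 genes, and 16 of these (88.9%) held GGAA, against 93.4% of 27025 promoters of the same length on either strand. CCGGAA was in 1 of 18 (5.56%), against 12.3% of all promoters and 22.7% of the 8846 promoters of measured genes. The core of the hypoxia response element, ACGTG, was in 0 of 18, Vegfa included. It was in 16.5% of all promoters and 22.2% of those of measured genes. Only these 250 bases were searched, so elements further from the start were not looked for. A match is only a description of these letters.

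A difference here is the knockout value minus the wild type value on the deposited scale, which was read as log2 from its range. Genes were called measured if their higher value reached the median of that array (7.60 in wild type, 7.58 in knockout), and 31 of the 32 genes did so on both arrays. The exception was Angpt2. All 22 endothelial marker genes among them were measured, so the labelled tissue held endothelium in both pools. The targeted genes were lower in the knockout pool. Etv4 was at 7.59 and 6.96 (-0.63), both below the limit, and the brighter Etv5 probe set at 11.51 and 11.28 (-0.23). The other Etv5 probe set differed by -0.24, and both fell short of the 1.2-fold threshold used below. The pools also differed in Xist, the RNA of the inactive X chromosome (12.34 and 5.74). The part that this difference has in the values below was not tested.

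Vessel genes as a group were close to equal in both pools. Of the 31 measured genes 22 were lower, 4 higher and 5 exactly equal, with a median difference of -0.022. Across all 11045 measured genes the median was 0, with 47.0% lower, 25.7% higher and 27.3% equal. The share of lower genes was thus 71.0% here, but most of the differences were very small. The absolute difference was under 0.1 for 23 of 31 (74.2%), against 78.8% of all measured genes. At a threshold of 1.2-fold, a log2 difference of 0.263, 1 gene was lower (Vegfc) and 0 were higher, against a background of 1.53% lower and 1.39% higher. At 1.1-fold 5 genes were lower and 1 higher (16.1% and 3.23%), against 7.5% and 5.05% of all measured genes. These 1.1-fold counts hold for the deposited scale only. With both arrays set to equal medians, Sox17 and Lyve1 fell short of 1.1-fold (-0.13 and -0.12). At 1.5-fold 0 genes were lower or higher, against 0.163% and 0.172%, and at 2-fold 0, against 0.0362% and 0.0543%. How the exact ties arose is not known, since the processing of the deposited values is not given. The median of 0 over all measured genes lies among these ties. A tie is a property of the deposited values and does not by itself show equal expression. No test was possible with 1 array per group. In whole lung, fewer cells of a type and less RNA per cell cannot be told apart.

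**Figure D1:**
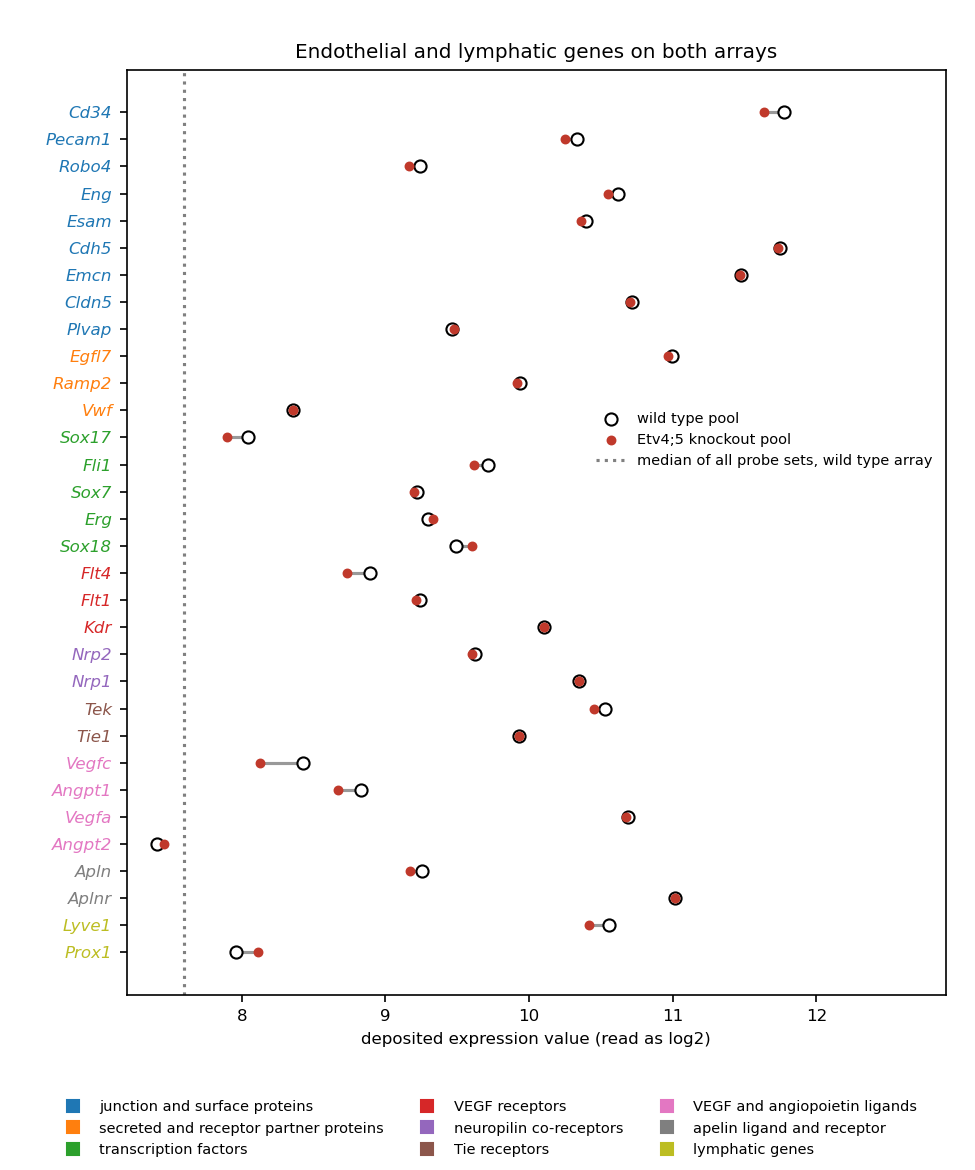
Deposited expression value (x axis, read as log2) of each of the 32 genes in the wild type pool (open circles) and the knockout pool (red), 1 array each, with gene names coloured by role and the wild type array median as a dotted line. Most pairs overlap, Vegfc has the widest gap (8.43 and 8.13), and Angpt2 lies left of the median on both arrays. Levels of different genes come from different probe sets and are not comparable.

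The median stayed below 0 under the other scalings, but its size and the counts of lower and higher genes changed. With both arrays set to equal medians 17 genes were lower and 14 higher, with quantile scaling 16 and 15, and with a loess curve 17 and 14. The share of lower genes over all measured genes was then 39.3%, 37.2% and 44.1%. The median of the vessel genes minus that of all measured genes was -0.022 with equal medians, -0.016 with quantile scaling and -0.0088 with loess. Over the planned settings that change values or genes, 15 of the 32 genes were below 0 throughout, 5 were above 0 throughout, and 12 changed sign or stood at 0. The 5 above 0 were Prox1, Sox18, Erg, Plvap and Angpt2, the last from its unfiltered value alone. Among these settings only the other scalings changed the values of these genes, mostly by a small shift upward. Kdr, for example, moved from 0 to at most 0.025. A sign that held thus says little beyond the size and direction of the deposited difference. No such count over all measured genes is given here, so these counts are not a trait of vessel genes.

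**Figure D2:**
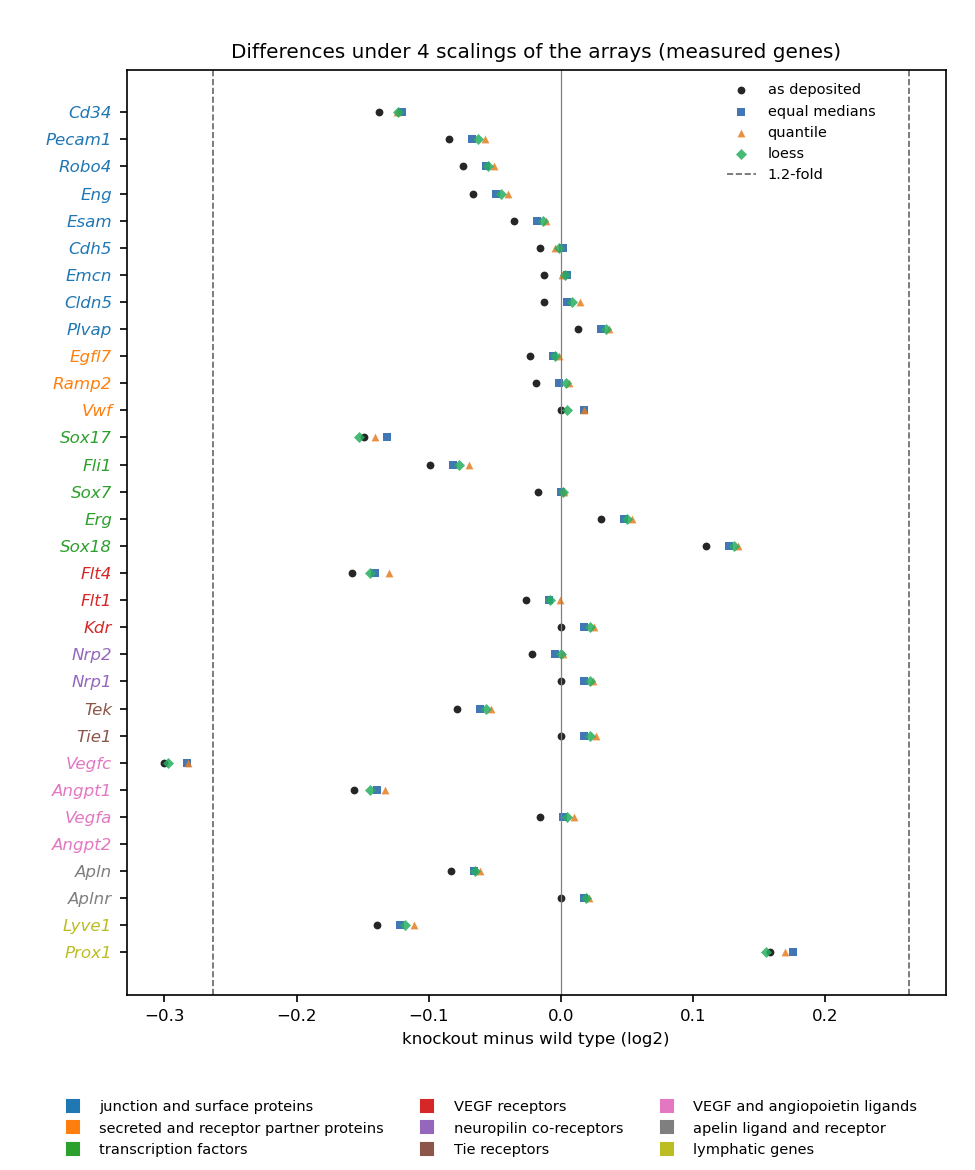
Knockout minus wild type (x axis, log2) of the 31 measured genes as deposited and under 3 other scalings, with 1.2-fold as dashed lines. Vegfc stays beyond 1.2-fold under each scaling (-0.30 to -0.28), while genes near 0, such as Vegfa, cross from one side to the other; Angpt2 was not measured and has no points.

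Each of the 32 genes was read by 1 probe set of its own symbol alone, so no value has a check by a further one. A probe set annotated to both Malat1 and Ramp2 was left out. For the 618 measured genes with 2 probe sets, the differences from these probe sets lay a median of 0.043 apart, with a 90th percentile of 0.18. Of the 32 differences, that of the unmeasured Angpt2 included, 17 were smaller than that median gap, and 31 were smaller than the 90th percentile. Only Vegfc exceeded it, and only Vegfc lay outside the central 95% of all measured genes (-0.22 to 0.20). This gap is a measure within the same arrays and not an error between embryos. Small differences were common on these arrays. Over all measured genes, 29.7% lay below -0.041 and 15.2% above 0.042, close to the median gap. Near the 90th percentile gap, 4.06% lay below -0.18 and 2.97% above 0.19.

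Among the junction and surface proteins of endothelium, 8 of 9 were lower and Plvap was higher, with a median of -0.035 and 0 past 1.2-fold. With equal medians 5 were lower and 4 higher, and with quantile or loess scaling 6 and 3, since Cdh5, Cldn5 or Emcn crossed 0. Values are given with wild type first. Cdh5, the cadherin of endothelial junctions, was at 11.75 and 11.73 (-0.016). Cldn5, the endothelial tight junction claudin, was at 10.72 and 10.70 (-0.012), and Esam, an adhesion molecule of the same junctions, at 10.40 and 10.36 (-0.035). These junction genes thus differed by less than the usual gap between probe sets. Pecam1, an adhesion molecule found on all endothelium, was at 10.34 and 10.25 (-0.085). The sialomucin Emcn was at 11.48 and 11.46 (-0.013). The TGF-beta co-receptor Eng was at 10.62 and 10.55 (-0.067). Pecam1 and Eng were somewhat lower, Emcn hardly so.

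Robo4, a guidance receptor that restrains vessel leak, was at 9.24 and 9.17 (-0.074). Plvap, the diaphragm protein of fenestrae and caveolae, was at 9.46 and 9.48 (0.013). Cd34, a sialomucin of endothelial and some mesenchymal cells, had the widest gap of these surface genes, at 11.78 and 11.64 (-0.14). Bright genes varied little between these arrays: among the 687 measured genes within 0.5 of its mean level, 4.51% had a lower difference than Cd34.

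Of the other endothelial proteins, Vwf, the clotting factor carrier stored by endothelial cells, was at 8.35 on both arrays. Egfl7, a matrix protein secreted by endothelium, was at 10.99 and 10.97 (-0.024). Ramp2, the partner of the adrenomedullin receptor Calcrl, was at 9.94 and 9.92 (-0.019). Calcrl itself was further apart, at 9.96 and 9.71 (-0.24). The receptor partner and the receptor thus did not differ alike.

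The endothelial transcription factors went both ways, 3 of 5 lower and 2 higher as deposited, 2 lower and 3 higher under each other scaling, with 0 past 1.2-fold. The ETS factor Erg, which maintains endothelial identity, was at 9.30 and 9.33 (0.031). The ETS factor Fli1, which acts in endothelial and blood cells, was at 9.71 and 9.61 (-0.099). Both are relatives of the targeted genes, and neither came near 1.2-fold. The SoxF factors, a family of 3 that act in arterial and lymphatic specification, did not share a direction. Sox7 was at 9.22 and 9.20 (-0.017). Sox17, which also acts in arterial endothelium, was at 8.04 and 7.89 (-0.15). Sox18, which induces Prox1 in lymphatic precursors, was at 9.49 and 9.60 (0.11). Of the 3189 measured genes within 0.5 of its level 3.98% had a higher difference than Sox18, and of the 2619 near Sox17 7.87% had a lower one.

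**Figure D3:**
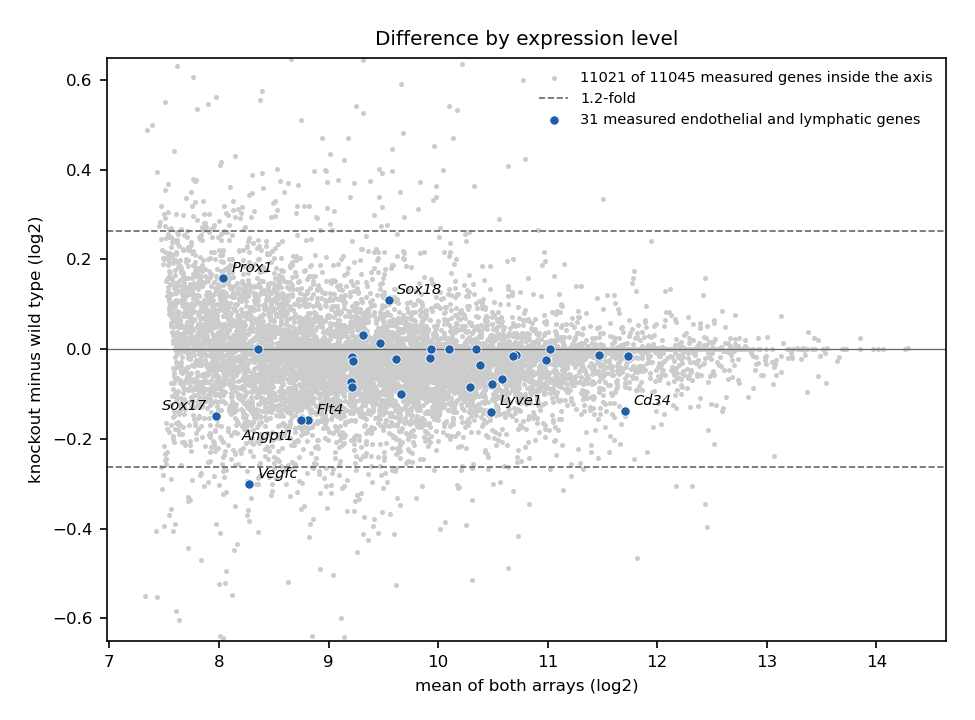
Knockout minus wild type (y axis, log2) against the mean of both arrays (x axis, log2) for 11021 of 11045 measured genes (grey; the others lie beyond the axis) and the 31 measured endothelial and lymphatic genes (blue), with 1.2-fold as dashed lines and genes at or above 0.1 in size named. Vegfc is the single blue point beyond 1.2-fold, and the spread of grey points narrows with level, so that Cd34 and Lyve1 lie near the lower edge.

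The receptors of VEGF-A were nearly equal in both pools. The receptor of VEGF-C was lower, by less than the 90th percentile gap between probe sets (0.18). Kdr, the main signalling receptor of VEGF-A, was at 10.10 on both arrays. Flt1, its decoy receptor, was at 9.24 and 9.21 (-0.027). Flt4, the receptor of VEGF-C and VEGF-D, was at 8.89 and 8.74 (-0.16), 1.12-fold lower. Flt4 had the lowest difference of the 22 endothelial markers, although 5.70% of all measured genes lay lower still. The neuropilins bind VEGF and semaphorins beside these receptors. Nrp1, the partner of Kdr, was at 10.35 on both arrays, and Nrp2, which is more abundant on veins and lymphatic vessels, was at 9.62 and 9.60 (-0.022). Of the Tie receptors, Tek, which binds the angiopoietins, was at 10.53 and 10.45 (-0.079), and its partner Tie1 was at 9.93 on both arrays.

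Of the ligands, the VEGF-A gene was equal within 0.02 and the VEGF-C gene stood lowest of all 32. Vegfa was at 10.69 and 10.68 (-0.016). Vegfc was at 8.43 and 8.13, and this difference of -0.30 leaves 81.2% of the wild type value (1.23-fold lower). Among all measured genes 1.01% had a lower difference, and among the 3060 near its level 1.08%. Angpt1, the mesenchymal ligand that activates Tek, was at 8.83 and 8.67 (-0.16). Angpt2, the endothelial antagonist of Angpt1 in many settings, was at 7.41 and 7.46 (0.047), below the limit on both arrays, so that its difference carries no weight. Apln, a peptide made by tip cells, was at 9.25 and 9.17 (-0.083), and its receptor Aplnr, found on veins and sprouting vessels, was at 11.02 on both arrays. Apln lies on the X chromosome, where 347 measured genes other than Xist had a median of -0.013.

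The lymphatic genes did not share a direction. Lyve1, the hyaluronan receptor of lymphatic vessels, was at 10.56 and 10.42 (-0.14), whereas Prox1 was at 7.96 and 8.12 (0.16). Among the measured genes within 0.5 of their levels, 5.73% lay below Lyve1 and 8.58% above Prox1. Both genes are also known outside lymphatic endothelium, Lyve1 in tissue macrophages and Prox1 in neuroendocrine cells. Leukocyte genes were lower in 7 of 7 measured of 10 listed, with a median of -0.10. Their mean level was 8.77 in wild type and 8.66 in knockout, with the macrophage receptors Mrc1 at -0.17 and Csf1r at -0.15. Ptprc, Aif1 and Itgam did not reach the limit for measured genes on either array. The part of macrophages in the Lyve1 value was not tested.

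Other lymphatic genes were mostly lower. Of 9 listed, 8 were found and 6 measured, of which 5 were lower, 0 higher and 1 equal, and 3 were at least 1.2-fold lower. Over all measured genes 47.0% were lower and 1.53% at least 1.2-fold lower. With equal medians or quantile scaling 5 of the 6 were lower and 1 higher, and with loess 6 were lower. Mmrn1, a secreted protein of lymphatic endothelium and platelets, was at 10.26 and 9.87 (-0.38). Pdpn, the mucin podoplanin, was at 9.06 and 8.78 (-0.28), and Tbx1, a T-box factor that acts on Flt4 in lymphatic cells, at 9.65 and 9.37 (-0.28). The count of 3 genes past 1.2-fold is from the deposited scale alone, where Pdpn and Tbx1 lay close to that threshold (0.263). Mmrn1 stayed past 1.2-fold under each setting (-0.38 to -0.36). The integrin gene Itga9 differed by -0.16 and the scavenger receptor gene Stab1 by -0.039, and the valve factor gene Foxc2 was equal on both arrays. These 6 genes thus ranged from equal to 1.31-fold lower. Several of these genes are also known in other cells of the lung, Pdpn in epithelium and mesothelium among them. The list's median was -0.22, and lay between -0.22 and -0.13 over the settings tried.

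VEGF-D, the other ligand of Flt4, went the opposite way to VEGF-C. Its gene Vegfd, which lies on the X chromosome, was at 10.53 and 10.73 (0.20), and 2.67% of measured genes had a higher difference. Under the other settings its difference lay between 0.20 and 0.23. Over all 12 measured of 13 further VEGF, semaphorin and related genes, 8 were lower, 3 higher and 1 equal (median -0.043). The only gene past 1.2-fold was Sema3c, which encodes a secreted semaphorin that binds neuropilins and Plxnd1, at 9.44 and 9.92 (0.48, 1.40-fold). Its neuropilin receptors Nrp1 and Nrp2 differed by 0.00 and -0.022, as given above, and Plxnd1 by -0.18.

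A further list of 25 pan-endothelial genes outside the 32 gave like values. All 25 were measured, 17 lower, 3 higher and 5 equal, with a median of -0.026 and 0 past 1.2-fold in either direction. The counts were 15 lower and 10 higher with equal medians, 14 and 11 with quantile and 16 and 9 with loess scaling, with medians of -0.0084, -0.0076 and -0.0098. The largest differences were those of Calcrl and of Hhex, a homeobox factor of early endothelium (7.64 and 7.45, -0.18). Hhex and Myct1 reached the limit for measured genes on the wild type array alone, so their place among the lower genes follows in part from the filter. Of 12 arterial and venous genes 10 were measured, with 4 higher, 5 lower, 1 equal and a median of -0.0054. Under the other scalings 7 were higher and 3 lower, and the median was above 0, at 0.012 with equal medians, 0.017 with quantile and 0.0087 with loess. Efnb2, the ephrin ligand of arteries, was at 10.21 and 10.01 (-0.20), while the arterial gap junction gene Gja5 was at 8.79 and 8.93 (0.14). Arterial genes thus lay on both sides of 0.

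Among the cells that adjoin the endothelium, pericyte genes had a median like that of the endothelial genes (-0.021, 10 of 10 measured, 5 lower, 2 higher and 3 equal; 5 lower and 5 higher under each other scaling, with a median of 0.00042 under quantile), and smooth muscle genes were further from 0. Rgs5, a marker of pericytes that restrains G protein signalling, was at 9.03 and 8.61 (-0.42). Smooth muscle genes were lower in 8 of 8 measured of 9 listed, with a median of -0.24 and a mean level of 10.51 and 10.24. Synpo2, Myocd and Cnn1 differed by -0.49, -0.39 and -0.31. Desmin, Des, is on both of these lists (-0.21). Mesenchyme genes were lower in 10 of 11 (median -0.095, mean level 10.91 and 10.79), with Foxf1 at -0.40 and Wnt2 at -0.31. Erythroid genes were lower in 4 of 4 measured of 10 listed, or 3 under quantile scaling (median -0.24, mean level 10.69 and 10.50), with Slc4a1 at -0.26 and Hba-x at -0.25. Hbb-bh1, Klf1, Epor and Rhag were below the limit.

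Most epithelial genes stood on the other side. Of 14 measured of 15 listed, 10 were higher and 3 lower (median 0.10, mean level 10.30 and 10.32). Elf3, counted as higher, reached the limit on the knockout array alone. The largest differences were those of Krt18 at 0.47 and Krt8 at 0.33 against Sftpc at -1.12, Sox9 at -0.32 and Id2 at -0.31. Over the 7 defining epithelial markers, 5 were higher and 2 lower (median 0.12), with 2 past 1.2-fold in each direction. Their mean level was 10.61 in wild type and 10.58 in knockout, so the markers did not move one way. Mesothelial genes had a median of 0.055 (5 of 6 measured, Krt19, which is also an epithelial keratin, at 0.45). Over the 3 measured of 4 defining mesothelial markers, without Krt19 and Bnc1, the median was 0.00, with Upk3b at -0.086. The median of the endothelial genes, -0.022, lay between those of epithelium and of mesenchyme. The part that different shares of these cells in the pools have in the values of Vegfc, Angpt1 and Flt4 was not tested.

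**Figure D4:**
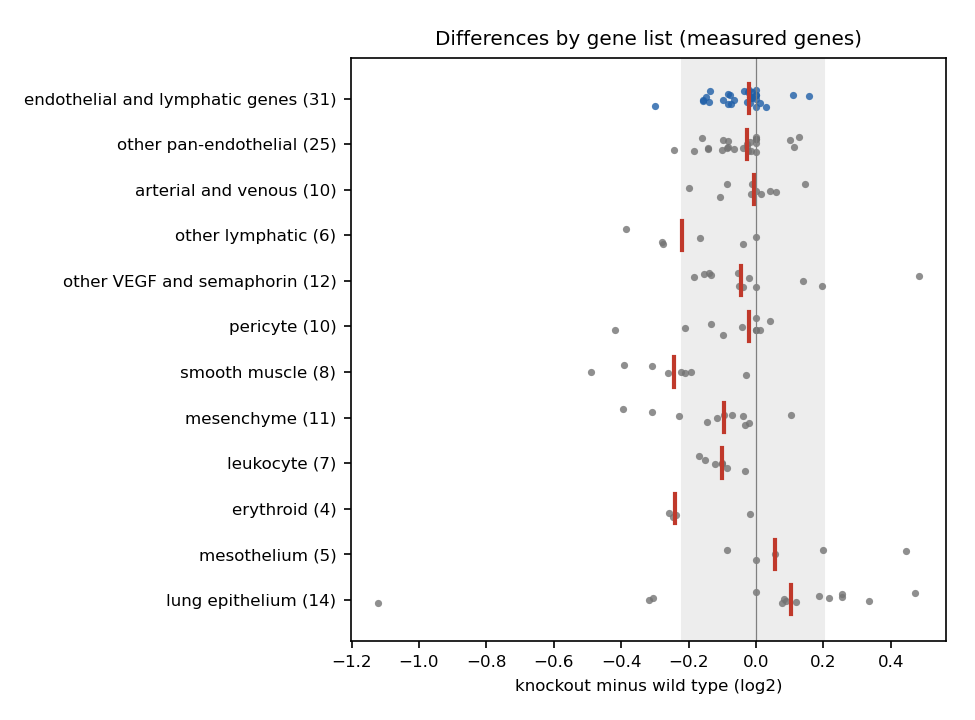
Knockout minus wild type (x axis, log2) of each measured gene (points, spread vertically at random within a row) by gene list, with the number measured in parentheses, list medians as red bars and the central 95% of all measured genes shaded. Endothelial and lymphatic genes (blue) centre at -0.022, other lymphatic genes at -0.22, smooth muscle at -0.24 and lung epithelium at 0.10.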

How the data were processed

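Total RNA was pooled from 3 samples per group and read on 1 Affymetrix array per group, per the labels and the series' design text. The authors' deposited values, 1 per probe set, were read as log2 values from their range (2.72 to 14.4 in wild type), since log base, summary method and normalization are not given in the sources used here. Of 35557 probe sets, 21789 had 1 symbol in the platform annotation, 1621 several and 12147 none. Each gene took the probe set with the highest mean, used as deposited, and counted as measured as described above. No test, SD or p-value could be computed, and the number of arrays limits the precision. Genes past 1.2-fold were counted.

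The 32 genes, the other lists and the thresholds were chosen with earlier results of these data known. The 32 genes are all reported; of each other list the genes past 1.2-fold (at most 4 per direction) are named, otherwise the 2 with the largest differences. Flt4 ligands and other genes named beside this were chosen after their values were seen. The counting steps were tested on simulated data. Alternatives were 3 scalings (equal medians, quantile, loess with span 0.3), the mean over probe sets, no filter on level or one at the 75th percentile, values floored at the 25th, and thresholds of 1.1-fold, 1.5-fold and 2-fold. RefSeq tables (GRCm38.p6) gave chromosomes and promoters. Python 3.11.15, numpy 2.4.6, pandas 2.3.3, statsmodels 0.14.6 and matplotlib 3.10.9 were used.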

Additional observations from a re-analysis of the deposited data

How the results depend on the processing

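The count of 1 gene at least 1.2-fold lower (Vegfc) was 5 at 1.1-fold (Vegfc, Flt4, Angpt1, Sox17 and Lyve1), against 7.5% of all measured genes, and 0 at 1.5-fold and at 2-fold. The count of 0 higher genes was 1 at 1.1-fold (Prox1), against 5.05%. With the filter at the 75th percentile 21 genes were measured, Vegfc was not among them, and 0 were lower by 1.2-fold. The 1.2-fold counts were the same under the other scalings and with no filter. At 1.1-fold, genes were counted on the deposited scale alone. Lyve1 fell short of 1.1-fold with equal medians, quantile and loess scaling (-0.12, -0.11 and -0.12). So did Flt4 and Angpt1 under quantile (both -0.13) and Sox17 with equal medians (-0.13). Vegfc and Prox1 stayed past 1.1-fold under each scaling. The mean over probe sets and the floor could not change the counts. Each gene has 1 probe set and the 31 measured genes lie above the median on both arrays. The median lay between -0.022 and -0.00094 over the planned settings. Leaving out X and Y genes, or probe sets equal on both arrays, was chosen after seeing the data. The median was then -0.020 and -0.031. No paired analysis was possible because each group has 1 array, and for the same reason no array could be left out. Signal close to the array median limits Prox1, Sox17 and Vegfc.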

Other observations

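Vegfc is made active by the protease Adamts3 together with the secreted protein Ccbe1, and both were looked up after the value of Vegfc was seen. Ccbe1 was at 9.15 and 9.13 (-0.020), wild type first. Adamts3 was read by 16 probe sets, of which the brightest was at 9.31 and 9.26 (-0.055). Their differences lay between -0.56 and 0.030, with 11 lower, 1 higher and 4 equal. The probe set at -0.56 was below the median on both arrays. Placental growth factor, Pgf, a ligand of Flt1, differed by -0.14, and Vegfb by -0.049.

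Of the 32 genes, 5 lie on the chromosomes of the targeted genes. Ramp2 lies on chromosome 11 with 14 measured genes between it and Etv4, and differed by -0.019. Pecam1 (60 genes away, -0.085) and Flt4 (538 genes away, -0.16) are on the same chromosome. Cldn5 and Erg lie on chromosome 16, with 29 and 199 measured genes between them and Etv5, and differed by -0.012 and 0.031.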
